A study of Mus musculus with 25 samples.

Results

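The phagocyte NADPH oxidase was followed in mouse brain cortex through 5 genes, Cybb, Cyba, Ncf1, Ncf4 and Rac2, chosen by gene symbol from the 54532 genes listed for each mouse. Levels are FPKM, fragments per kilobase of gene length, scaled to sequencing depth, so that genes of different length can be set side by side. All 5 genes were among the 16450 tested genes, those with at least 0.5 FPKM in at least 5 of the 25 libraries. Cybb passed that filter through 5xFAD mice alone, since none of the 10 wild-type libraries reached 0.5 FPKM, and Ncf4 reached that level in 0 wild-type vehicle, 1 wild-type high P, 5 5xFAD vehicle, 3 5xFAD low P and 4 5xFAD high P libraries. Both had to be high in some group in order to be tested, whereas Cyba and Ncf1 reached the level in all 25 libraries and Rac2 in 4 wild-type vehicle, 3 wild-type high P and all 5xFAD libraries.

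RNA from the cortex of 25 mice was sequenced, with 5 mice in each of 5 groups. Wild-type mice were given vehicle or the high level of P, and 5xFAD mice vehicle, the low level of P or the high level of P; low P was given to 5xFAD mice only. The 5xFAD line (AD in the sample titles) carries transgenes for human proteins, mutant APP among them, under Thy1 sequences, which act mainly in neurons, and deposits amyloid in the brain. P is a derivative of a natural product, and the sources used here do not give its identity, its doses, the length of treatment or the age of the mice.

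The oxidase moves electrons from cytosolic NADPH across a membrane to oxygen and so makes superoxide, which phagocytes use against what they engulf. Cybb encodes the catalytic subunit that carries the electrons, and Cyba its smaller membrane partner; Ncf1 and Ncf4 encode cytosolic subunits that join them on activation, together with a Rac GTPase, of which Rac2 is the form of blood cells. In the brain the complex is best known from microglia, the resident phagocytes, and neutrophils and monocytes carry it as well.

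In mm10 coordinates, Cybb (ENSMUSG00000015340) lies on chromosome X from 9435252 to 9487771 on the minus strand, with 5808 bp of annotated exons. Cyba (ENSMUSG00000006519) lies on chromosome 8 from 122424776 to 122432930, also on the minus strand, and is the shortest of the 5 with 1039 bp of exons. Ncf1 (ENSMUSG00000015950) occupies chromosome 5 from 134220053 to 134229625 on the minus strand, with 3663 bp of exons. Ncf4 (ENSMUSG00000071715) and Rac2 (ENSMUSG00000033220) share chromosome 15, Ncf4 from 78244801 to 78262580 on the plus strand with 2020 bp of exons, and Rac2 from 78559167 to 78572783 on the minus strand with 3103 bp. Of the exonic bases of Ncf1, 408 are shared with Gtf2ird2 on the opposite strand. The libraries were strand-specific per the labels' protocols, but the sources used here do not say whether reads were counted by strand, so the level of Ncf1 is uncertain to that extent. Group means of Gtf2ird2 lay between 2.70 and 3.13 FPKM.

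The 250 bases before the RefSeq start (build GRCm38.p6, minus strand) were found for 3 of the 5 genes and are shown because these genes were higher together in 5xFAD cortex and differ in the motifs that their windows hold. Capitals mark each match, on either strand, to GAAANNGAAA, the pattern that interferon regulatory factors recognise. The Cybb window is chrX:9469325-9469574, inside the annotated gene, whose annotated start lies further upstream; the Ncf1 window is chr5:134229626-134229875 and the Cyba window is chr8:122432941-122433190.
Cybb: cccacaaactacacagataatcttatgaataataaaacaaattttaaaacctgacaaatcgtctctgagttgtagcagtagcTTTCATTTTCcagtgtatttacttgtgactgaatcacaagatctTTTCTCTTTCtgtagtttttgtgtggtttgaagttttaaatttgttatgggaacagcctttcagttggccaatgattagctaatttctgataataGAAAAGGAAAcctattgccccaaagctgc
Ncf1: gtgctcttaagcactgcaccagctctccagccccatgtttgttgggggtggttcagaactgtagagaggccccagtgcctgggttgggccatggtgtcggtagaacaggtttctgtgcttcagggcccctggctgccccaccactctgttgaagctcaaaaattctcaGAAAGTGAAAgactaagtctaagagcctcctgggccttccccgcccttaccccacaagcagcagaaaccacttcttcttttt
Cyba: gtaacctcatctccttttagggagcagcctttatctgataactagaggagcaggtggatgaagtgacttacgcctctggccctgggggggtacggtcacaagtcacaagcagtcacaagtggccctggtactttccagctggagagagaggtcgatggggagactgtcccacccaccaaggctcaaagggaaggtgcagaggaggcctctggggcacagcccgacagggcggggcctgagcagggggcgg
The Cybb window held 3 matches, whose leftmost bases lie at positions -168, -124 and -29 from the start, the first and second on the opposite strand. The Ncf1 window held 1, at position -82, and the Cyba window none. Of 32851 windows of the same length in the RefSeq table, 2.98% held at least 1 match. The Cybb window also held CCAAT at position -56, a pattern found in 33.8% of windows. GAGGAA, a pattern of the myeloid factor PU.1, was in none of the 3 windows and in 23.3% of all, and its core GGAA, which can overlap GAAANNGAAA, was in all 3 and in 93.4% of all. TATAAA was in none of the 3 and in 12.4% of all. GC content was 34% in the Cybb window, 54.4% in that of Ncf1 and 60% in that of Cyba. A match in these letters describes a sequence and is not a measured binding site.

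Reads assigned to genes, recovered from the deposited values, ranged from 15518358 to 17698222 per library. Judged by Xist and Y-linked genes, 3 mice of each group were male and 2 female. Several library measures differed between mice. The choroid plexus gene Ttr exceeded 100 FPKM in 4 libraries, wild-type high P 1 and 2 and 5xFAD high P 1 and 4, and lay between 0.485 and 58.2 FPKM in the others. The slope of log2 expression on the GC content of genes, per 10 percentage points against the mean library, averaged -0.150 ± 0.148 (SD, n = 5) in wild-type vehicle and 0.173 ± 0.0496 in wild-type high P, with ranges that did not overlap. Low P mice 1 and 2 of the 5xFAD line were at -0.282 and -0.278, below the other 3 of their group (0.0227 to 0.159), and had the lowest array weights of all libraries, 0.314 and 0.271, a limma measure of how closely a library follows its group. The share of reads in mitochondrial genes was 5.89% to 6.64% in wild-type vehicle and 3.96% to 4.71% in wild-type high P, and 6.69% and 6.83% in low P mice 1 and 2 where the other 3 had 3.63% to 4.62%. Genes above 0 FPKM numbered 20846 to 22106 in wild-type vehicle and 22311 to 22522 in wild-type high P, and 20069 and 18776 in those low P mice against 22445 to 22670.

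In mice on vehicle, all 5 oxidase genes were higher in 5xFAD than in wild-type cortex, and no 5xFAD mouse overlapped a wild-type mouse in any of them. Differences were tested with limma, a linear model fitted to log2(FPKM + 0.5) of all tested genes, with p-values adjusted by the Benjamini-Hochberg method over the 16450 genes and a call at an adjusted p under 0.05. The 5 differences on that scale ran from 0.68 to 1.94, with a median of 1.04, where the median over all tested genes was -0.02. Of all tested genes, 3.1% were called in this comparison and 2.83% were called higher, and in 3.02% every 5xFAD mouse lay above every wild-type mouse. Cybb and Ncf4 were tested only because 5xFAD mice had them at the filter level, so their calls and lack of overlap are a description. In bulk cortex, more cells that carry an RNA and more RNA in each such cell cannot be told apart.

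Cybb, the catalytic subunit, was low in wild-type cortex, with 0.289, 0.177, 0.132, 0.0204 and 0.230 FPKM in vehicle mice 1 to 5, which rest on 2 to 28 reads. The 5xFAD vehicle mice had 0.760, 0.530, 0.958, 0.859 and 1.33 FPKM, from 51 to 131 reads. Every 5xFAD mouse was above every wild-type mouse, and wild-type mouse 4 was the lowest of all. Group means were 0.888 ± 0.294 and 0.170 ± 0.102 FPKM (SD, n = 5), a ratio of 5.23, the highest ratio of means among the 5 genes. On the log2 scale the difference was 1.04 (SE 0.16, limma adjusted p = 0.000127), a description, since Cybb was tested only through its level in 5xFAD mice. The added 0.5 FPKM shrinks the change of so low a gene, and with voom weights on recovered reads its difference was 2.70.

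Cyba, the membrane partner that stabilises the catalytic subunit, was the most abundant of the 5 per length. Wild-type vehicle mice 1 to 5 had 4.33, 3.14, 2.50, 1.99 and 3.15 FPKM, and 5xFAD vehicle mice 15.8, 10.4, 17.8, 13.5 and 8.12 FPKM. The lowest 5xFAD mouse, number 5, still exceeded the highest wild-type mouse, number 1. The means were 13.1 ± 3.91 against 3.02 ± 0.878 FPKM (SD, n = 5), a ratio of 4.34 and a log2 difference of 1.94 (SE 0.19, limma adjusted p = 1.12e-07). By size of that difference Cyba ranked 29th of the tested genes from the top.

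Ncf1, the organiser subunit whose phosphorylation starts assembly, had 1.28, 0.988, 1.42, 1.37 and 0.761 FPKM in the wild-type vehicle mice. The 5xFAD vehicle mice had 3.80, 2.69, 4.24, 3.74 and 2.35 FPKM, so that the groups stood clear of each other. Means were 3.36 ± 0.803 and 1.16 ± 0.280 FPKM (SD, n = 5), with a log2 difference of 1.21 (SE 0.16, limma adjusted p = 1.34e-05). Gtf2ird2, which shares exonic bases with it, averaged 2.70 ± 0.322 FPKM in 5xFAD vehicle mice and 2.84 ± 0.573 in wild-type vehicle mice.

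Ncf4, the cytosolic subunit that binds the phosphoinositide PI3P on phagosomes, showed the smallest difference. Wild-type vehicle mice had 0.327, 0.329, 0.496, 0.234 and 0.330 FPKM, and 5xFAD vehicle mice 0.689, 1.19, 1.06, 0.697 and 0.672 FPKM. Mice 2 and 3 of the 5xFAD group were the high ones, and the other 3 lay close together just above the wild-type range. These values rest on 8 to 17 reads per wild-type library and 22 to 40 per 5xFAD library. The log2 difference was 0.68 (SE 0.18, limma adjusted p = 0.0340), from means of 0.862 ± 0.247 and 0.343 ± 0.0948 FPKM (SD, n = 5). Its call is a description, since Ncf4 was tested only through its level in 5xFAD mice. That call was lost in 12 of 24 alternatives, in 6 of them by leaving out a single mouse (wild-type vehicle 1, 2, 4 or 5, or 5xFAD vehicle 2 or 3), with adjusted p from 0.00503 to 0.120 over all 24.

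Rac2, the GTPase of blood cells that switches the complex on, had 0.658, 0.758, 0.931, 0.210 and 0.664 FPKM in wild-type vehicle mice and 1.99, 1.65, 2.17, 1.42 and 1.60 FPKM in 5xFAD vehicle mice. The gap between the groups was clear, and wild-type mouse 4 was again the lowest, as it was for Cybb, Cyba and Ncf4. Means were 1.77 ± 0.304 and 0.644 ± 0.267 FPKM (SD, n = 5), with a log2 difference of 1.01 (SE 0.22, limma adjusted p = 0.00736).

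**Figure D1:**
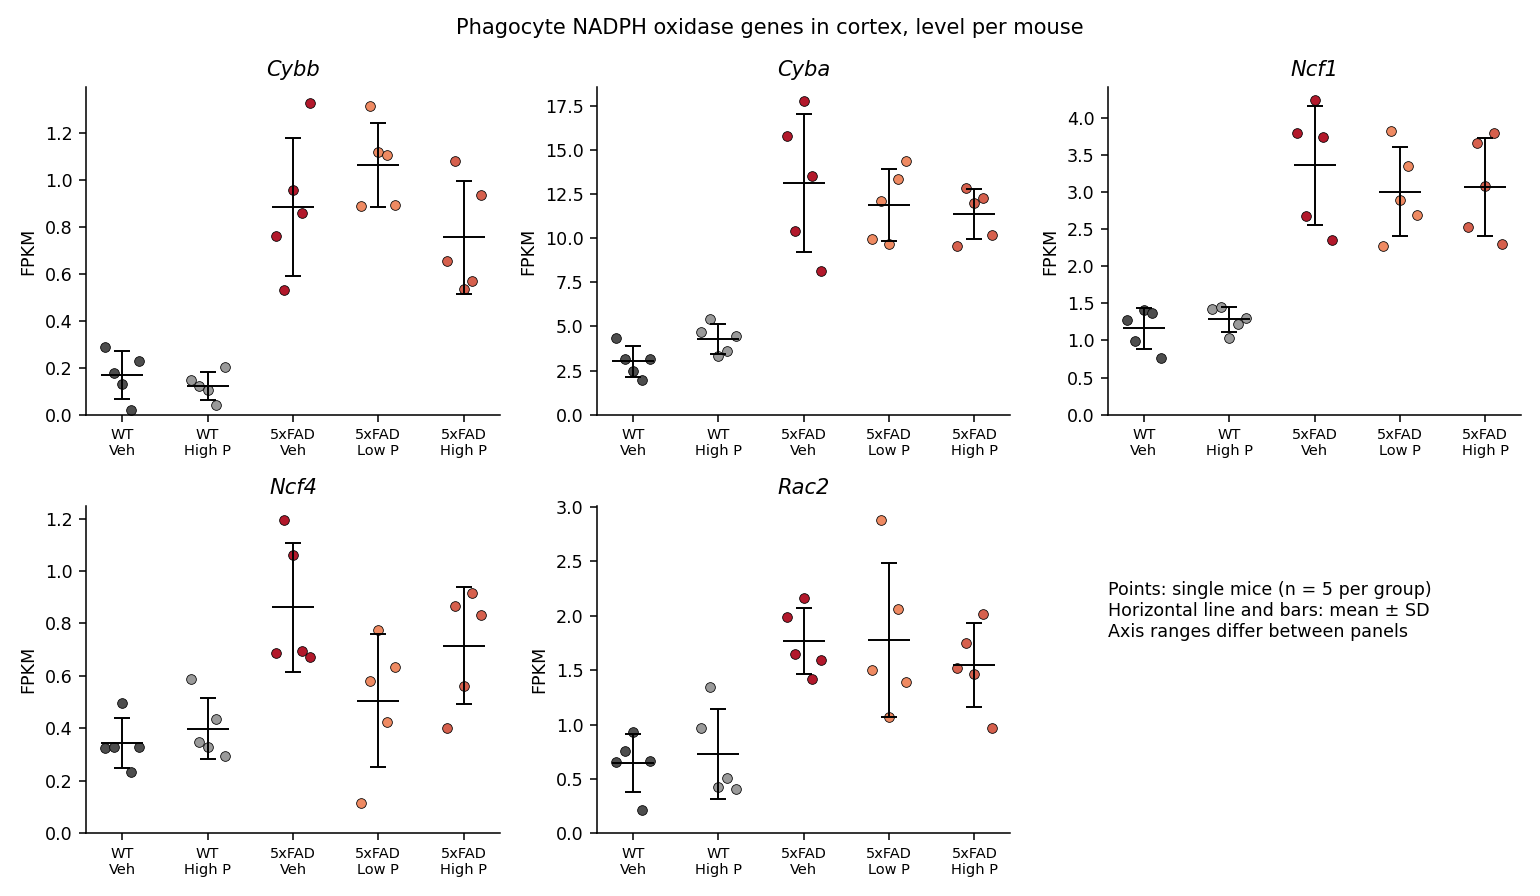
FPKM of each oxidase gene (vertical axes, which differ between panels) in single mice of the 5 groups (points), with the mean and SD (line and bars, n = 5). In each panel the 5xFAD vehicle mice lie above all wild-type vehicle mice, and the 3 5xFAD groups overlap each other.

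Under high P the genotype difference was called for 3 of the 5 genes, the membrane pair and Ncf1; 1.75% of tested genes were called in this comparison, 1.5% higher, and 3.22% had every 5xFAD mouse above every wild-type mouse. Cyba measured 9.58, 12.8, 12.002, 12.3 and 10.2 FPKM in 5xFAD high P mice against 4.68, 5.42, 3.32, 3.62 and 4.47 in wild-type high P mice, a log2 difference of 1.32 (SE 0.19, limma adjusted p = 8.06e-05). Cybb measured 0.653, 1.08, 0.534, 0.568 and 0.939 FPKM against 0.146, 0.121, 0.104, 0.0405 and 0.205, a log2 difference of 0.99 (SE 0.16, limma adjusted p = 0.000416). Neither gene overlapped between these groups, and for Cybb the call and the lack of overlap are again a description. Ncf1, with 2.53, 3.66, 3.08, 3.80 and 2.30 FPKM against 1.42, 1.46, 1.04, 1.22 and 1.30, differed by 0.98 (SE 0.16, limma adjusted p = 0.000390), also without overlap. Without the 4 libraries high in Ttr, 2 of each group, the same 3 genes were called, with log2 differences of 1.503 for Cyba, 1.12 for Cybb and 1.04 for Ncf1.

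Rac2 and Ncf4 did not pass the test under high P. Rac2 had 1.52, 1.75, 1.46, 2.02 and 0.972 FPKM in 5xFAD high P mice and 0.966, 1.34, 0.429, 0.512 and 0.403 in wild-type high P mice. Mouse 5 of the first group lay below mouse 2 of the second, and the log2 difference was 0.77 (95% interval 0.31 to 1.23, limma adjusted p = 0.0927). Without wild-type high P mouse 2 it was called, with an adjusted p of 0.0246. Ncf4 had 0.400, 0.865, 0.561, 0.918 and 0.833 FPKM against 0.588, 0.348, 0.329, 0.437 and 0.295, with 5xFAD mice 1 and 3 inside the wild-type range. Its log2 difference was 0.42 (95% interval 0.05 to 0.80, limma adjusted p = 0.392).

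P was not followed by a called difference in any of the 5 genes, in either genotype or at either dose. Shares of all tested genes called were 3.17% for high P against vehicle in wild-type mice, 0% for low P against vehicle in 5xFAD mice, 0.00608% for high P against vehicle in 5xFAD mice, 0% for high against low P and 0% for the interaction of genotype with high P. The 522 genes behind the 3.17% became 2724 without wild-type vehicle mouse 1, 411 without high P mouse 5 and 0 to 88 without any other mouse of either group, with 0 without vehicle mouse 5 or high P mouse 3; they were 0 without the libraries high in Ttr and 22 with GC correction. The 3 counts of 0 over all genes come from limma on FPKM, voom on recovered reads also called 0 in each, and 491, 1019 and 1138 genes had an unadjusted p under 0.05 in those comparisons. In 5xFAD mice the differences between high P and vehicle ran from -0.17 for Ncf4 to -0.11 for Ncf1 on the log2 scale, and their 95% intervals together from -0.62 to 0.30. All 5 estimates were below 0, and each interval included 0. The comparisons of low and of high P share the 5xFAD vehicle mice.

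Cyba gave the largest difference between high P and vehicle in wild-type mice, 4.30 ± 0.845 against 3.02 ± 0.878 FPKM (SD, n = 5). High P mouse 2 was above the highest vehicle mouse by a clear margin, high P mice 1 and 5 exceeded it slightly, and the groups overlapped. The log2 difference of 0.46 (95% interval 0.08 to 0.85) had a limma adjusted p of 0.113. It was called without wild-type vehicle mouse 1 (0.59, adjusted p = 0.0360) and measured 0.32 without the libraries high in Ttr and 0.13 after a correction for GC content; the adjusted p ran up to 0.887 over all alternatives. Cyba has a GC content of 59.3% in its longest transcript where the median tested gene has 49.7%, and the GC slope separated the same groups, as given above; its part in the result was tested only through that correction. The mitochondrial share and the number of genes detected separated these groups as well, and their part was not tested. The other 4 genes differed by -0.09 to 0.12 in wild-type mice. For Cyba the difference made by high P in 5xFAD mice minus that in wild-type mice was -0.62 (SE 0.26, 95% interval -1.16 to -0.08), which did not pass the adjustment (limma adjusted p = 0.71); in the other 4 genes it ran from -0.26 to -0.04.

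Ncf4 was the gene that differed most at low P. The 5xFAD low P mice had 0.115, 0.580, 0.776, 0.424 and 0.635 FPKM, a mean of 0.506 ± 0.252 (SD, n = 5) against 0.862 ± 0.247 in 5xFAD vehicle mice. Mouse 1 was far below the rest of its group, and 4 of the 5 lay below the lowest vehicle mouse. The log2 difference was -0.46 (95% interval -0.83 to -0.09), with a limma adjusted p of 1. Mice 1 and 2 are the libraries of low GC slope, low array weight, high mitochondrial share and few detected genes named above, and without them the difference was -0.29 (limma adjusted p = 0.504). The remaining genes differed by -0.13 (Ncf1) to 0.19 (Cybb) between low P and vehicle. Cybb was 1.07 ± 0.179 FPKM at low P (0.892, 1.32, 1.12, 1.11 and 0.893) and 0.756 ± 0.243 at high P. The dose groups overlapped, and their log2 difference, high minus low, was -0.33 (95% interval -0.66 to -0.00181, limma adjusted p = 0.773). Cyba at low P measured 9.97, 12.1, 9.69, 13.3 and 14.4 FPKM, Ncf1 2.27, 3.83, 2.90, 3.35 and 2.69, and Rac2 1.501, 2.88, 1.07, 2.06 and 1.39. All of these lie within or beside the ranges of the other 5xFAD groups, and for Rac2 mice 2 and 3 mark the highest and nearly the lowest 5xFAD values.

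**Figure D2:**
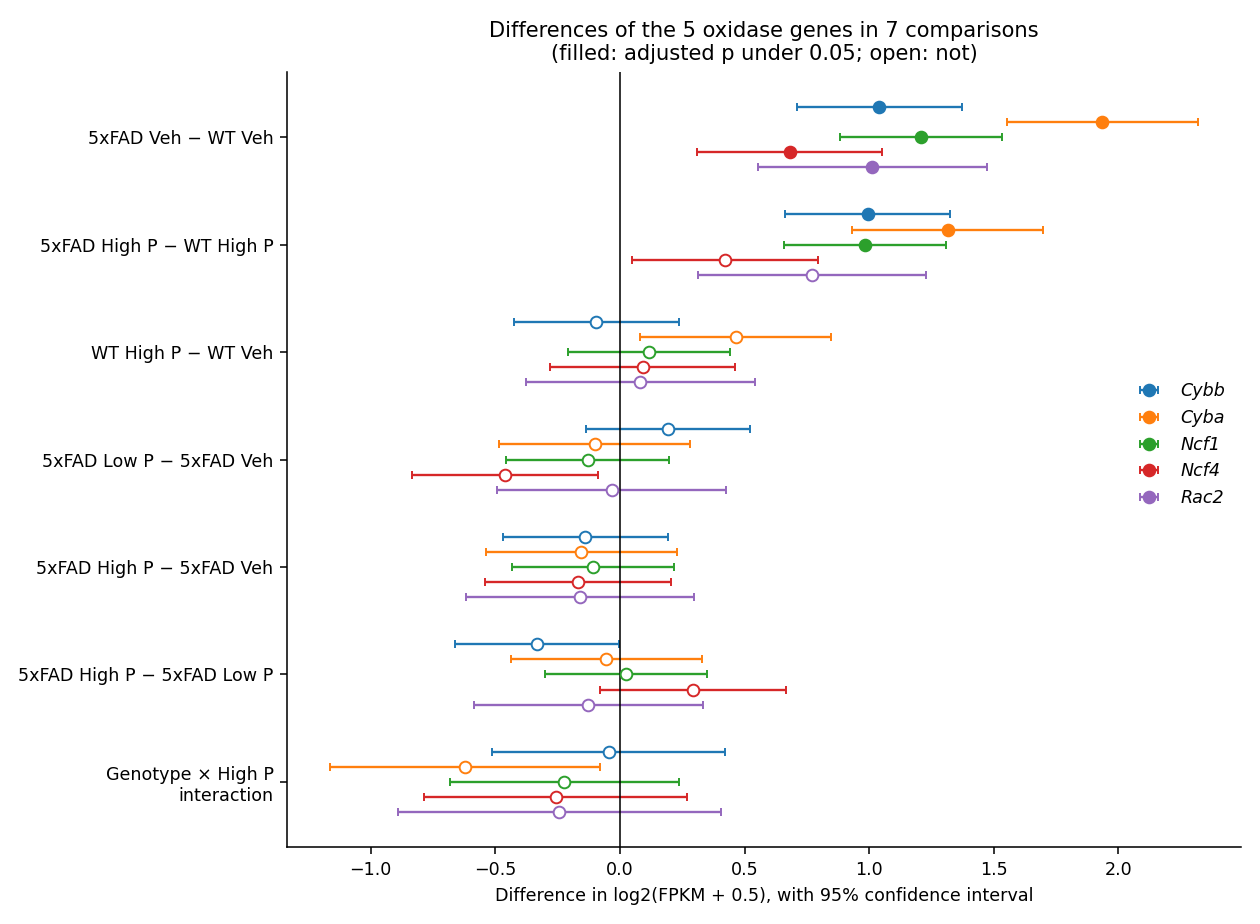
Difference in log2(FPKM + 0.5) of each oxidase gene (points, with 95% confidence intervals) in the 7 comparisons (rows); filled points have an adjusted p under 0.05. All 5 genes are filled in 5xFAD against wild type on vehicle and 3 under high P, and none is filled in the other 5 rows.

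In each gene the order of the group means ran through the 5xFAD groups first and the wild-type groups last. For Cyba, Ncf1 and Ncf4 the 5xFAD vehicle group was highest, whereas Cybb and Rac2 were highest at low P. Neighbours within a genotype overlapped in every gene. The step between genotypes, from the lowest 5xFAD group to the highest wild-type group, was free of overlap for Cyba, Cybb and Ncf1, while for Ncf4 and Rac2 mice of both sides overlapped. Per length, Cyba was the most abundant in all 5 groups, then Ncf1, then Rac2, with Cybb and Ncf4 exchanging the last places: Ncf4 was above Cybb in both wild-type groups, and Cybb above Ncf4 in the 3 5xFAD groups by their means.

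Microglial markers differed between the genotypes as well. The summed level of 8 markers, among them Csf1r, Cx3cr1, P2ry12 and Tmem119, was 88.5 to 124 FPKM in wild-type vehicle, 88.2 to 122 in wild-type high P, 216 to 254 in 5xFAD vehicle, 179 to 223 in 5xFAD low P and 163 to 221 in 5xFAD high P mice. In 5xFAD against wild type on vehicle, 4 of the 8 rose, Cx3cr1 and Csf1r among them, and no marker was called lower. Astrocyte markers moved with genotype too: 2 of 6 rose, Gfap, an intermediate filament of astrocytes, at 354 ± 90.0 against 27.1 ± 7.26 FPKM (SD, n = 5; log2 difference 3.69, limma adjusted p = 2.61e-11) and Aqp4, a water channel, by 0.93 (limma adjusted p = 0.00773). The summed level of the 6 was 619 to 894 FPKM in 5xFAD vehicle and 352 to 414 in wild-type vehicle mice. That sum moved largely with Gfap: Slc1a2 was 243 ± 19.1 against 262 ± 8.51 FPKM, and 4 of the 6 were not called. The median log2 difference of all 6, Gfap and Aqp4 included, was 0.24. The part of either cell type in the oxidase genes was not tested. Each oxidase gene was therefore also expressed against the mean log2(FPKM + 0.5) of the 8 markers in the same mouse, as a description without a test. Relative to these markers Cyba was 1.12 higher in 5xFAD vehicle than in wild-type vehicle mice by group means, 1.21 higher at low P and 1.21 higher at high P. Its 5xFAD vehicle values of -1.03 to 0.02 lay above the wild-type vehicle range of -1.81 to -1.21, so that Cyba differed by more than the marker mean did in each of these mice. Wild-type high P mice were 0.52 higher than wild-type vehicle mice by the same measure. Their values of -1.31 to -0.83 overlapped those of 5xFAD vehicle mice, and the 5xFAD high P mice, at -0.42 to -0.18, lay above them.

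With 0.5 FPKM added, the other 4 genes moved much closer to the markers. Ncf1 was 0.40, 0.45 and 0.53 higher than in wild-type vehicle at vehicle, low P and high P in 5xFAD mice, and Rac2 0.20, 0.35 and 0.29 higher; both overlapped with wild type. For Cybb the same differences were 0.23, 0.61 and 0.33, and only the low P mice, at -3.45 to -3.10, were all above the wild-type vehicle range of -4.07 to -3.53. That measure depends on the pseudocount for so low a gene: with 0.1 FPKM added in place of 0.5, Cybb was 1.08, 1.55 and 1.14 higher, beside 1.23, 1.32 and 1.32 for Cyba. Ncf4 was 0.13 lower in 5xFAD vehicle mice with 0.5 FPKM added and 0.26 higher with 0.1, so its direction against the markers turned with the pseudocount. How far the marker levels account for the oxidase differences was not tested.

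**Figure D3:**
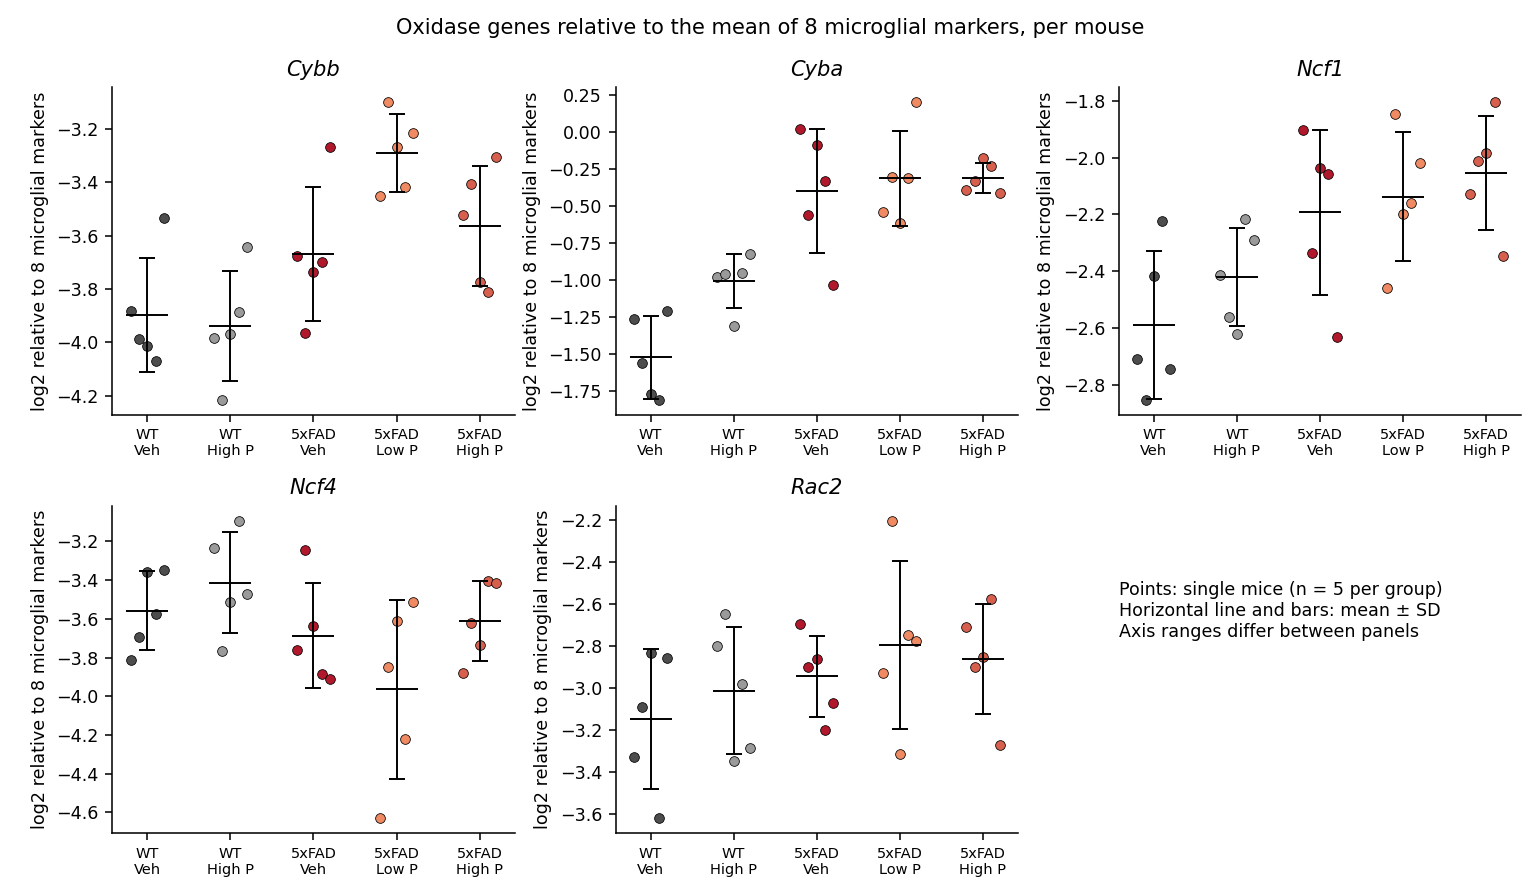
Each oxidase gene in single mice (points, with mean and SD, n = 5 per group) as log2(FPKM + 0.5) minus the mean of the 8 microglial markers in the same mouse; vertical axes differ between panels. Cyba is the gene whose 3 5xFAD groups all lie above the wild-type vehicle range, and Ncf4 shows no such shift.

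Markers of other cells that carry the oxidase had lower sums than the microglial markers. Of 12 neutrophil markers, 3 were tested and 1, Csf3r, rose; microglia express it too. Their summed level was 2.20 to 3.86 FPKM in wild-type vehicle and 5.85 to 13.2 FPKM in 5xFAD vehicle mice, and without Csf3r, left out after its values were seen, 0.557 to 2.08 and 0.178 to 6.07 FPKM. Ly6g was listed at 0 in 24 libraries, Elane in 21 and Mpo in 14, and Mpo never exceeded 0.0881 FPKM. Among the higher ones, S100a8 reached 1.67, S100a9 2.69 and Ngp 0.995 FPKM, with 0 in 9, 8 and 12 libraries. S100a8 and S100a9, the other tested markers, were not called on vehicle (log2 differences 0.24 and 0.33). Of 7 monocyte markers only Vcan was tested and it was not called; the list summed to 1.69 to 2.40 and 1.61 to 2.69 FPKM in the same 2 groups, and Ccr2 stayed at or below 0.146 FPKM. Of 7 perivascular macrophage markers 4 were tested and none was called, with sums of 1.97 to 3.29 and 2.19 to 5.63 FPKM. None of 10 lymphocyte markers was tested, and their sums reached 0.759 and 1.04 FPKM.

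Of 7 partners of the oxidase, 1 rose in 5xFAD against wild type on vehicle and 6 were not called. Hvcn1, the proton channel that balances the charge the oxidase moves, was 1.60 ± 0.197 against 0.436 ± 0.114 FPKM (SD, n = 5), a log2 difference of 1.17 (limma adjusted p = 3.76e-05). It was also called under high P, at 0.89. Rac1, the ubiquitous GTPase that can serve the complex, was 72.4 ± 2.63 against 75.4 ± 3.65 FPKM, and the neuronal Rac3 7.10 ± 1.56 against 7.08 ± 2.27 FPKM. Cybc1, a chaperone of the membrane pair, was 3.93 ± 0.577 against 3.47 ± 0.357 FPKM. Rap1a, Arhgdia and Arhgdib, the last of which holds Rac2 in the cytosol, were not called either. The other NADPH oxidases and their subunits did not reach the filter: of Nox1, Nox3, Nox4, Noxo1, Noxa1, Duox1, Duox2, Duoxa1 and Duoxa2, the highest value in any mouse was 0.449 FPKM (Noxo1), and Duoxa2 was listed at 0 in all 25 libraries.

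Upstream of the complex, 10 of 15 tested phagocyte receptors and adaptors of 17 listed rose on vehicle, and the median log2 difference of the 15 was 1.61. They were Clec7a, Fcgr3, Fcgr1, Fcer1g, Trem2, Tyrobp, Tlr2, Cd14, Itgam and Itgb2. Clec7a, the receptor for fungal glucans, was 9.56 ± 2.49 against 0.238 ± 0.283 FPKM (SD, n = 5; log2 difference 3.81, limma adjusted p = 9.68e-11). Itgb2, the integrin chain that pairs with Itgam, was 8.11 ± 1.70 against 2.03 ± 0.376 FPKM (log2 difference 1.76, limma adjusted p = 8.59e-09). Under high P, 9 of the 15 were called, all but Itgam of those 10. Of the 22 called genes of the lists around the oxidase, 4 reached the 0.5 FPKM of the filter in under 5 of the 10 wild-type mice: Clec7a in 1, Hvcn1 in 2, Dock2 and Btk in 0. These 4 were tested only because 5xFAD mice had them at that level, so their higher values there are a description.

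Among 10 regulators of Rac, Vav1 and Dock2, exchange factors of blood cells, rose, with log2 differences of 1.40 and 0.92 (limma adjusted p = 3.11e-07 and 3.45e-05), and 8 were not called. Vav1 was 2.89 ± 0.188 against 0.801 ± 0.265 FPKM (SD, n = 5) on vehicle and was not called under high P (log2 difference 0.53, limma adjusted p = 0.0638). Of 15 tested kinases and lipid signals, 4 rose (Plcg2, Pik3cg, Lyn and Btk), by 0.62 to 0.79, and the same 4 were called under high P. Of 7 tested transcription factors, 3 rose on vehicle: Spi1, which encodes PU.1, by 1.18, Irf8 by 1.33 and Cebpa by 1.43. Irf8 and Spi1 were called under high P as well. Cebpa differed between high P and vehicle in wild-type mice too, at 7.99 ± 0.566 against 4.52 ± 0.400 FPKM (log2 difference 0.76, limma adjusted p = 0.0263). That call did not hold in every alternative: no gene at all was called in this comparison without wild-type vehicle mouse 5, without high P mouse 3, with no filter or without the libraries high in Ttr.

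Among genes that supply NADPH, 0 of 9 were called on vehicle, and among those that handle peroxide 2 of 18, beside 3.1% of all tested genes. The median log2 difference of the supply genes was 0.25 against -0.02 over all tested genes, and 8 of the 9 were above 0, Nadk (-0.04) being the exception. Under high P the genotype median of these genes was 0.02. For high P against vehicle in wild-type mice their median was 0.22. That comparison and the one of genotypes on vehicle share the wild-type vehicle mice, so the 2 medians are not independent. The cause of either shift was not tested. G6pdx, the entry enzyme of the pentose phosphate pathway, was 11.5 ± 1.24 against 9.58 ± 1.05 FPKM (SD, n = 5), with a log2 difference of 0.25 (limma adjusted p = 0.305). Of 18 peroxide-handling genes, Hmox1, which degrades haem, and Prdx6, a peroxiredoxin, rose by 1.23 and 0.60 (limma adjusted p = 5.67e-05 and 0.000905), and 16 were not called. Cat, the catalase gene, was 16.9 ± 0.729 against 15.2 ± 1.23 FPKM.

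**Figure D4:**
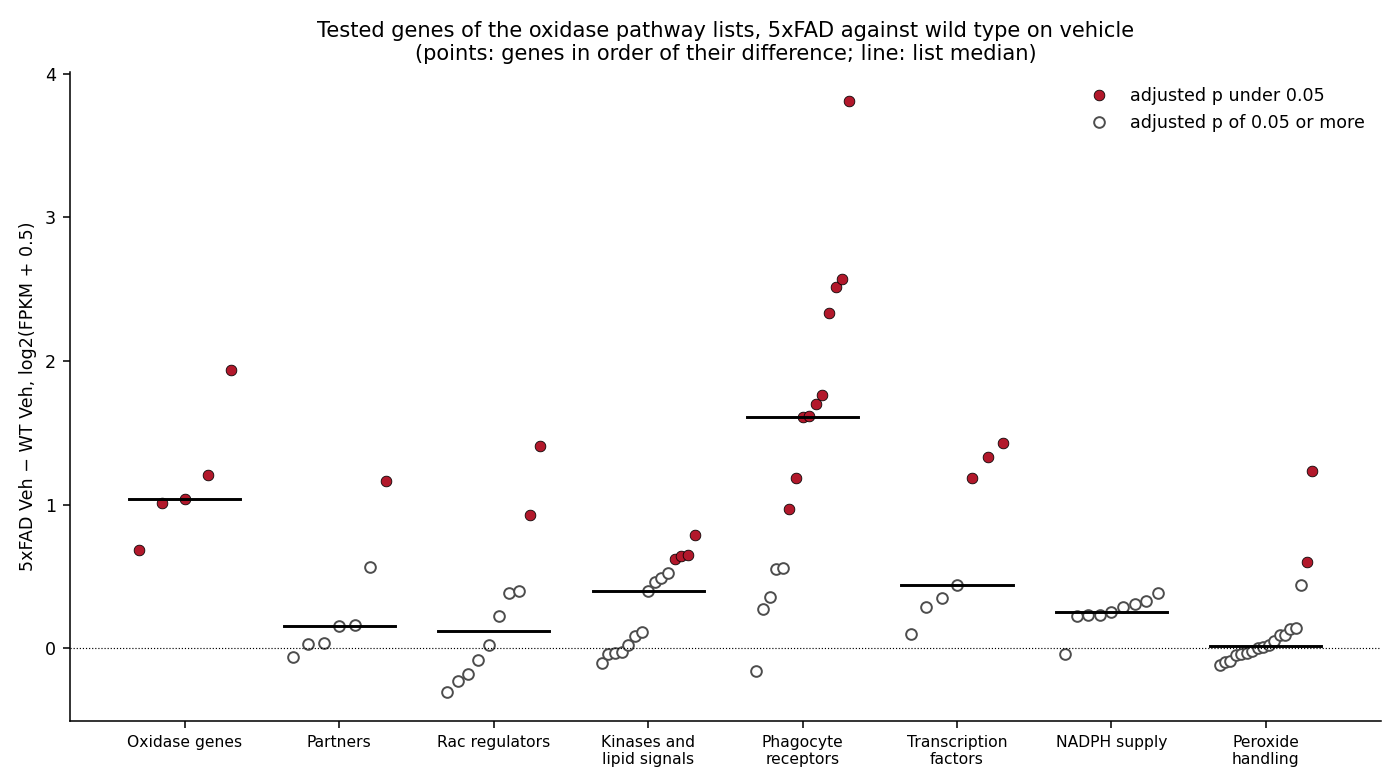
Difference in log2(FPKM + 0.5) between 5xFAD and wild-type mice on vehicle (vertical axis) for the tested genes of each list (points, filled where the adjusted p is under 0.05; line, list median). The 5 oxidase genes are all filled with a median of 1.04, the receptor list has 10 filled points and a median of 1.61, and the NADPH supply list has none.

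After each group's mean was subtracted, 20 relations were computed over the 25 mice, between pairs of oxidase genes and with the microglial marker mean and the GC slope, and none passed the Benjamini-Hochberg adjustment over the 20. The closest pair by Pearson's r was Cyba with Ncf1 (Pearson r = 0.525, permutation p = 0.0210, adjusted p = 0.0754; Spearman rho = 0.495, permutation p = 0.0267, adjusted p = 0.0850; r = 0.490 without the 2 mice farthest in Ncf1). Cyba with Rac2 gave r = 0.516 (permutation p = 0.00867, adjusted p = 0.0754) and rho = 0.541 (permutation p = 0.00974, adjusted p = 0.0848), and r = 0.384 without the 2 mice farthest in Rac2. Cybb with Ncf1 gave r = -0.0248 (permutation p = 0.923) and rho = 0.00231 (permutation p = 0.993), although both genes rose in 5xFAD mice. Against the microglial marker mean, r ran from 0.138 for Ncf4 to 0.548 for Rac2, whose rho was 0.604 (adjusted permutation p = 0.0754 and 0.0848). Cyba with the GC slope gave r = 0.499 (permutation p = 0.0226, adjusted p = 0.0754) and rho = 0.445 (permutation p = 0.0431, adjusted p = 0.108), where the other 4 genes had r between -0.199 and 0.267.

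The genes most like each oxidase gene across mice, by the same measure over all tested genes and as a description, differed from member to member. For Cyba they were Eif6 (r = 0.791), S100a6, Gm12657, C1qc and Ptpn6. Ncf1 was closest to Cd300a (r = 0.811), then to Ctsd, Slc11a1, Hmox1 and Tor3a, and Cybb to Lilrb4a (r = 0.745), Ptprc, Tgif1, Gm5903 and n-R5s197. Rac2 was closest to Fam213a (r = 0.767), Akr1a1, Cd81, Dbi and Mdfic, and Ncf4 to Mcur1 (r = 0.724), Gm26734, Ogfod3, Entpd5 and Oxnad1. These are the highest of 16445 values each, and no gene appeared for 2 members.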

How the data were processed

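Strand-specific libraries were made from poly(A)-selected cortical RNA, per the labels' protocols, and, per the submitters' processing notes, reads were aligned to mm10 with HISAT2; its version, the counting tool and the annotation were not given in the sources used here. FPKM per gene were computed and deposited by the authors. FPKM multiplied by the deposited gene length, and divided by the smallest such product above 0 in each library, taken as 1 read, came out whole for 100% of values (tolerance 0.01), and these recovered reads were used for depth and 1 alternative. No library pair agreed within sampling noise (chi-square per gene at least 5.03), so each of the 25 counted as its own mouse.

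log2(FPKM + 0.5) of the 16450 tested genes was fitted in limma 3.58.1 (R 4.3.3) with a mean per group, an intensity trend and 20 residual degrees of freedom; tests were two-sided. The fit was checked on simulated data. Tables were handled with the data.table package (1.17.8), pandas 2.3.3, NumPy 2.4.6 and SciPy 1.17.1, and drawn with Matplotlib 3.10.9. Correlations used 100000 permutations of mice within groups.

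The members and lists were chosen with earlier results of these data known. Named were the members, their partners, up to 4 genes per list with the smallest adjusted p in 5xFAD against wild type on vehicle or called elsewhere, and the 5 genes most like each member; further list genes are named where they complete a count. Some genes of these lists are not reported here. Alternatives changed the pseudocount, filter, scaling, weights, samples, GC content, sex, replicate block and single libraries. Added after seeing the data were voom, and leaving out the 4 libraries high in Ttr or 5xFAD low P 1 and 2.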

Additional observations from a re-analysis of the deposited data

Results flagged for a closer look

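For Cyba, the mice on high P lay on opposite sides of the vehicle mean in the 2 genotypes. The log2 ratio of group means, high P over vehicle, was 0.51 in wild-type and -0.21 in 5xFAD mice; every wild-type high P mouse was above the wild-type vehicle mean of 3.02 FPKM, and every 5xFAD high P mouse was below the 5xFAD vehicle mean of 13.1 FPKM. The difference was tested as an interaction and did not pass (log2 -0.62, SE 0.26, limma adjusted p = 0.71). Over the alternatives it ran from -0.77 to -0.40, the latter after GC correction, and the groups differed in GC slope. None of 25 groups of 5 values held an outlier by Dixon's test with a critical value of 0.71.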

How the results depend on the processing

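In 5xFAD against wild type on vehicle, Cyba, Cybb, Ncf1 and Rac2 were called in every alternative and Ncf4 in 12 of 24; of the oxidase genes 4 to 5 were called. For Cybb and Ncf4 these calls are a description, given how they passed the filter. Under high P, 3 to 4 were called: Rac2 was added by array weights (adjusted p = 0.00299) and without wild-type high P 2. In wild-type mice, 0 to 1 were called for high P when a mouse was left out in turn (1 without vehicle mouse 1). A filter of 1 FPKM removed Ncf4.

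The replicate numbers did not pair the mice (correlations of same-numbered deviations from -0.379 to 0.273). With the replicate block, 5, 3 and 0 oxidase genes were called in the 2 genotype comparisons and for high P in wild-type mice, as without it, and 479, 275 and 218 genes of all in place of 510, 288 and 522.

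Counts over all genes were 493 with voom and 811 with array weights for genotype on vehicle. Under high P they were 970 with array weights, 517 with only the groups compared and 132 without the libraries high in Ttr. For high P in wild-type mice they ran from 0 to 2724 when a mouse was left out, and were 0 with no filter or without the libraries high in Ttr, 22 with GC correction, 11 with block and GC correction, 829 with sex, 1513 with only the groups compared, 2452 without 5xFAD low P 1 and 2, and 3371 with array weights. The other 4 comparisons gave 0 to 9.

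Signs changed only in differences that were not called, 37 of 918 values. For high P in wild-type mice, GC correction, with or without the block, gave Cybb 0.14, Ncf1 -0.00060, Ncf4 -0.11 and Rac2 -0.011; Rac2 was -0.24 without the libraries high in Ttr and -0.081 to 0.18 leaving out mice in turn. For low P against vehicle, leaving out mice gave Cyba -0.25 to 0.018 and Rac2 -0.19 to 0.088. For high against low P, GC correction gave Ncf1 -0.017, with or without the block; leaving out mice gave Cyba -0.12 to 0.015, Ncf1 -0.057 to 0.11 and Rac2 -0.25 to 0.028, and without low P 1 and 2 Rac2 was 0.035. The interaction for Cybb was 0.011 with a pseudocount of 0.1, 0.012 with voom, 0.048 with array weights, 0.087 with quantile normalization, 0.079 without the libraries high in Ttr and -0.15 to 0.061 leaving out mice. The cause was not tested.

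With a pseudocount of 0.1, levels against the microglial markers, minus wild-type vehicle, moved by more than the spread between mice: at high P Cyba was 1.32, Cybb 1.14, Ncf1 0.74, Ncf4 0.26 and Rac2 0.62, on vehicle Cybb was 1.08, Ncf4 0.26 and Rac2 0.57, and at low P Cybb was 1.55. Depth limits Cybb in wild-type mice and Ncf4 throughout; reads may include PCR duplicates, so low values carry more than counting error.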
